A study of Mus musculus with 2 samples.

Results

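The junction genes of CMT93 cells were compared between 1 array of control cells and 1 array of cells treated with LPS, or lipopolysaccharide, a component of the Gram-negative bacterial outer membrane. The set holds 61 of the 34648 gene names on the array. It was chosen by gene name, as the numbered claudins, the zonula occludens scaffolds, plakophilins, desmocollins and desmogleins together with further names from occludin to plakoglobin. CMT93 is an established mouse carcinoma line whose labels give the rectum, the strain C57BL/ICRF and an age of 19 months. Both cultures were grown in DMEM, and nothing in the labels sets them apart other than the addition of LPS. The labels give a dose of 3 µg/mL and a time of 24 h on both samples, and the text was read as describing the LPS sample. Each group had 1 array, so no difference has a replicate check, no test was possible, and all sizes describe these 2 arrays of 1 cell line.

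Epithelial cells are held together at their sides by tight junctions, adherens junctions and desmosomes. In the tight junction, claudins and occludin seal or gate the space between cells, and the zonula occludens proteins and cingulin tie them to actin. In the adherens junction, E-cadherin binds its partner on the next cell and catenins link it to actin, while desmosomal cadherins are linked by plakoglobin, plakophilins and desmoplakin to keratin filaments. In the intestine this apparatus sets how much of the gut contents, bacterial products included, passes between cells, and it is known to be remodelled during inflammation.

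The arrays shared 1 slide and 1 scan. After 223 of 59305 non-control spots were left out for outlier flags, the share of spots well above background was 55.8% for control and 54.7% for LPS, with 0 saturated. A level here is the log2 processed intensity minus the 75th percentile of the array, which lay at an intensity of 651 for control and 631 for LPS. A difference is the LPS level minus the control level, and a value after ± is the SD of such differences over spots of repeatedly printed probes of like brightness. That SD was 0.11 for the dimmest of 4 brightness bins and 0.03 for the brightest, and it covers the slide only, not cultures or labelling. Levels of different probes are not compared. In all, 20320 gene names were well above background on both arrays and are called measured.

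The line's labelled origin was set beside 11 markers of intestinal epithelium, of which 10 were measured. The keratin genes Krt8, Krt18 and Krt19, the microvillus gene Vil1 and the intestinal transcription factor gene Cdx1 were among them. Cdx1 was dim, with levels of -4.15 in control cells and -4.39 with LPS. Cdx2, a master regulator of intestinal identity, was not well above background on either array.

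The probe sequences behind the results that the text turns on are given here, so that it is clear which stretch of each transcript was read. Each line holds the last 30 bases of a 60-base probe, in the sense of the transcript, for the highest measured member (Tjp3), the other member that was at least 1.5-fold higher (Tjp1), the lowest (Epcam) and the claudin seen on the LPS array alone (Cldn11). Capitals mark the letters of the polyadenylation signal, AATAAA. The Cldn11 probe also holds this signal, but not wholly within the 30 bases shown.
Tjp3: cttctgaccacttAATAAAtctttaaaaaa
Tjp1: ctacattctgttaataatcagtaggtgtga
Epcam: aaggagatgggtgagatccacagagagctt
Cldn11: aactttaactgactgcccacggtttccagg
The files place these probes, on mouse build mm9, at chr10:80735967-80736026 on the minus strand for Tjp3, at chr7:72441126-72441185 on the minus strand for Tjp1, at chr17:88048972-88049800 on the plus strand for Epcam and at chr3:31062922-31062981 on the plus strand for Cldn11. The ends given for the Epcam probe lie farther apart than its 60 bases. Whether each stretch is coding or untranslated was not analysed here.

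The promoters of the highest measured members and of the lowest one follow, as the 250 bases before a RefSeq transcription start on GRCm38.p6. They are shown so that the differing members can be set beside the sequence upstream of them. Capitals mark matches on either strand to the E2 box CACCTG, a motif read by Snail-family and ZEB repressors of junction genes, or to the GC box GGGCGG, a motif read by Sp1.
Tjp3: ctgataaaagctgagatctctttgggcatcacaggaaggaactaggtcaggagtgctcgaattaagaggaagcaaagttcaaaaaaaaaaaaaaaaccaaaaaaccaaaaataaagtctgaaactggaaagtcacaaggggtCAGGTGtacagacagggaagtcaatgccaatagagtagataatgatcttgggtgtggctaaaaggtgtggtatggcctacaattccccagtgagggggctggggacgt
Tjp1: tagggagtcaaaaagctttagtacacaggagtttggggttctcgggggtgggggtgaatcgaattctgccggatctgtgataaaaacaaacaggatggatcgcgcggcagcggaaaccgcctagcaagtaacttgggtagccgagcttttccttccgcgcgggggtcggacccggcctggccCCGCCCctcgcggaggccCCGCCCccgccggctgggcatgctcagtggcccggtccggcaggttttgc
Epcam: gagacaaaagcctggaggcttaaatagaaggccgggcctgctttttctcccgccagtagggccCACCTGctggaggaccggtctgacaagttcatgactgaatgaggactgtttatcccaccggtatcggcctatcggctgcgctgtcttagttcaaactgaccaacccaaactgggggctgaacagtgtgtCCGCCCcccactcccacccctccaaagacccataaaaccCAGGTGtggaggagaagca
These stretches are chr10:81291582-81291831 (minus strand, 1 of 2 starts in the table), chr7:65371245-65371494 (minus strand) and chr17:87635729-87635978 (plus strand). The Tjp3 stretch held 1 E2 box, the Tjp1 stretch 2 GC boxes, and the Epcam stretch 2 E2 boxes and 1 GC box.

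Promoters in the RefSeq table were matched for 28 of the 41 measured junction genes, with 41 starts among them. Motifs were searched in the 250 bases before each start only. The E2 box was in 14 of these 41 promoters (34.1%) and in 17.2% of all 32851 promoters in the table. The GC box was in 25 (61.0%), against 32.7% of all. The AP-1 motif TGANTCA was in 4 (9.76%), against 6.75%, and the NF-kappaB motif was in 3 (7.32%), against 7.25%. E2 boxes lay at 12 measured junction genes: Tjp3, F11r, Ocln, Epcam, Crb3, Pard3, Pard6b, Pkp4, Cldn4, Cldn6, Cldn7 and Cldn14. None of these motifs was found at Cldn2, Cldn17, Cldn20, Cldn25 or Ctnnd1. Whether a motif went with the direction of a difference was not tested. A match describes the letters only, and starts of 1 gene can share sequence.

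Of the 61 junction genes, 41 were measured on both arrays, 1 was well above background on the control array alone, 1 on the LPS array alone and 18 on neither. Among the 41, 1 was higher with LPS by at least 2-fold, 2.44% of them, where 1.46% of all measured gene names were that much higher. None of the 41 was at least 2-fold lower (0 of 41), where 0.571% of all were. At 1.5-fold, 2 were higher (4.88%) against 3.58% of all, and 0 were lower against 2.68% of all. In genes, each count of members lies about 1 or less from what the share over all measured names would give. The median difference over the 41 was -0.05, with quartiles of -0.26 and 0.13, and that over all measured names was -0.02, with quartiles of -0.14 and 0.10. The differences ran from -0.56 for Epcam to 1.69 for Tjp3, and 15 of 41 lay above 0 (36.6%), against 44.5% of all.

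**Figure D1:**
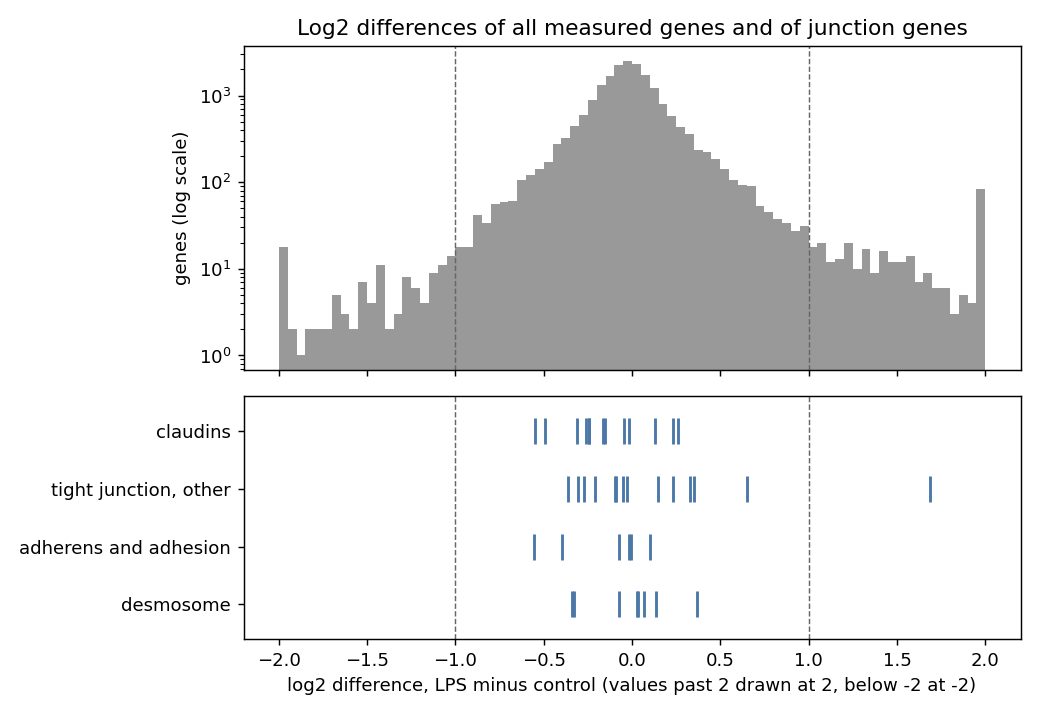
The upper panel is a histogram of the log2 difference (LPS minus control) of all 20320 measured gene names, with the number of genes on a log axis, and the lower panel marks each measured junction gene by a tick at its log2 difference, in 4 groups. Dashed lines stand at 2-fold. Tjp3, at 1.69, is the only junction gene past a line, and the other ticks lie between -0.56 and 0.65.

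The scaffold genes of the tight junction held the largest difference among the junction genes. Tjp3 encodes zonula occludens 3, a cytoplasmic scaffold found in epithelia. Its level was 2.57 in control cells and 4.26 with LPS, or intensities of 3872 and 12101. That is 3.22-fold higher, a log2 difference of 1.69 ± 0.03, which ranked 108 from the top among the 20320 measured names. Over the other settings of background correction and scaling the Tjp3 difference lay between 1.65 and 1.70. Probe choice and filter could not change it, as the gene has 1 probe, and some scalings only shift all genes alike. The value rests on 1 probe printed in 1 spot per array.

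The Tjp3 probe lies at the 3′ end of the gene, and in RefSeq (GRCm38.p6) the last 60 bases of the gene overlap Apba3, an adaptor gene on the opposite strand. The 2 probes for Apba3, which sit on the plus strand at chr10:80735806-80735865 and chr10:80735798-80735857, differed by -0.01 and -0.03. Both lie outside the stretch read by the Tjp3 probe. Whether the overlap bears on the Tjp3 value was not tested.

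The next largest difference was that of its paralog Tjp1. Tjp1, which encodes ZO-1, the scaffold that links claudins and occludin to actin, went from 3.51 to 4.17. The Tjp1 difference of 0.65 ± 0.03 is 1.57-fold, ranked 606 from the top, and lay between 0.62 and 0.66 over the same settings. It was thus past 1.5-fold but short of 2-fold, and it too rests on 1 probe.

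Cingulin and its relative differed in direction. Cgn, which encodes cingulin, a cytoplasmic protein that binds ZO-1 and actomyosin, went from 4.27 to 4.62, a difference of 0.35 ± 0.03. Cgnl1, which encodes paracingulin, went from -2.95 to -3.25, a difference of -0.31 ± 0.11. It was -0.13 when the background was corrected by normexp, a model of signal plus noise. An offset of 50 was added to each signal there, which by itself makes the differences of dim genes smaller. Over the 5 scaffold genes the median was 0.35.

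**Figure D2:**
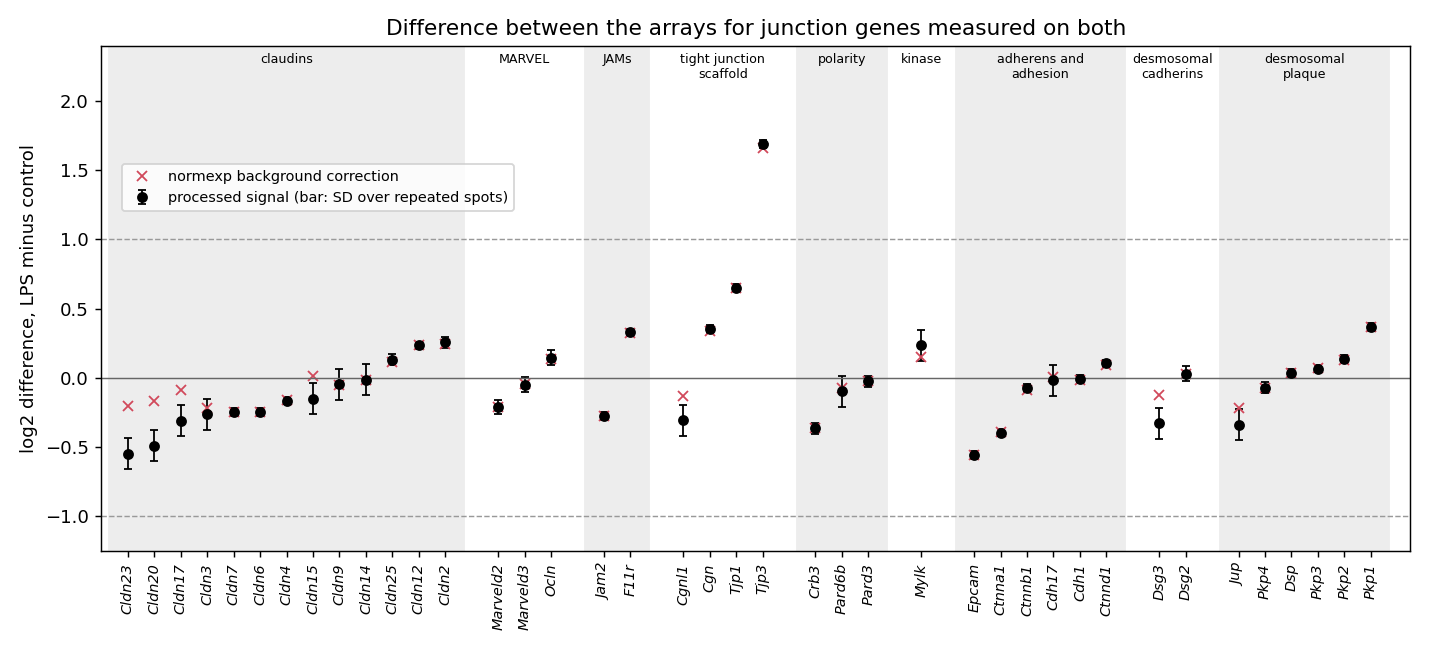
Each measured junction gene reported here is plotted by its log2 difference, LPS minus control, on the vertical axis, grouped by role. Filled circles give the processed signal with the SD over repeated spots as the bar, crosses give the same difference after normexp background correction, and dashed lines stand at 2-fold. Tjp3 (1.69) and Tjp1 (0.65) stand above the rest, and the crosses of dim genes such as Cldn23 (-0.20) lie nearer to 0 than their circles (-0.55). The offset of 50 in normexp by itself brings dim genes nearer to 0.

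Claudins, the four-pass membrane proteins that form the strands of the tight junction, made up 25 of the 61 names. Of these, 13 were measured, and none of the 13 was 1.5-fold different in either direction. Of all measured names, 3.58% were at least 1.5-fold higher and 2.68% lower, so a count of 0 among 13 is near those shares. In all, 10 lay below 0 and 3 above (23.1% above, against 44.5% of all), with a median of -0.16 and a range from -0.55 to 0.26. With normexp 9 of 13 lay below 0, with a median of -0.09, and with quantile normalization 9 of 13, with a median of -0.20. The median over all genes stayed between -0.04 and -0.01 under these scalings.

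Split at the median brightness of measured genes, the claudins differed in how many lay below 0. The sizes did not follow brightness gene by gene: the bright Cldn7 and Cldn6 were at -0.25 each, and the dim Cldn14 at -0.01. All 7 claudins below the median brightness of measured genes had negative differences, with a median of -0.26, though Cldn15 turned to 0.01 with normexp and Cldn14 to 0.01 with quantile normalization. The 6 at or above it split into 3 above 0 and 3 below, with a median of -0.02. The 8 dim junction genes that are no claudins had a median of -0.07, with 6 below 0 and 2, Mylk and Dsg2, above. With the 7 claudins the median of the 15 dim genes was -0.15, and over all dim measured names the median was -0.04 with 42.9% above 0. With normexp these medians were -0.07 and -0.02.

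Cldn7, which encodes a claudin of the intestinal epithelium that also lies along the basolateral membrane, went from 5.57 to 5.33. Its difference was -0.25 ± 0.03, and -0.25 with normexp. Cldn4, which encodes a sealing claudin of barrier epithelia, was read by 2 probes at different places in the transcript. They went from 4.28 to 4.12 and from 4.17 to 3.99, so both gave lower values on the LPS array, by differences of -0.16 and -0.17. Cldn6, a claudin gene best known from embryonic epithelium and some tumours, went from 3.54 to 3.29, a difference of -0.25 ± 0.03.

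These bright claudins were lower by several times the spot SD, but by less than 1.5-fold. Cldn2 encodes the claudin that forms a cation and water channel and is known to be raised in inflamed gut. It went from 1.29 to 1.55, a difference of 0.26 ± 0.04, and its second probe gave 0.14. Cldn12, which encodes a claudin linked to paracellular calcium transport, went from 3.61 to 3.84, a difference of 0.23 ± 0.03. The name Cldn25 on the array is Cldnd1 in RefSeq, a claudin-domain gene, and went from 1.81 to 1.94, a difference of 0.13 ± 0.04. These 3 were the claudins above 0. Cldn26 on the array is Tmem114 in RefSeq, and without both of these names 10 of 12 measured claudins lay below 0, with a median of -0.21.

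The dim claudins changed most with the background correction. Cldn23 went from -3.55 to -4.10, a difference of -0.55 ± 0.11 that was -0.20 with normexp. Cldn20 went from -3.88 to -4.38, a difference of -0.49 ± 0.11 that was -0.17 with normexp. Both stayed below 0 with normexp, where the offset of 50 by itself brings such dim genes nearer to 0. Cldn17 went from -4.67 to -4.98, a difference of -0.31 ± 0.11 that was -0.09 with normexp. Cldn15, which encodes a cation channel claudin of the gut, went from -4.86 to -5.01, a difference of -0.15 ± 0.11 that was 0.01 with normexp and so had no stable sign. Cldn3, which encodes a sealing claudin, had intensities of 390 and 315, a difference of -0.26 ± 0.11, and -0.22 with normexp. Cldn9 at -0.05 ± 0.11 and Cldn14 at -0.01 ± 0.11 were within the spot SD.

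Several junction genes are neighbours in the genome. Cldn4 and Cldn3 have probes 41.9 kb apart on chromosome 5, and both differences were negative (-0.16 and -0.26). Cldn6 and Cldn9 have probes 1.14 kb apart on chromosome 17, with differences of -0.25 and -0.05. The probes of Ocln and Marveld2, both tight junction genes of the MARVEL family, lie 97.7 kb apart on chromosome 13, with differences of 0.14 and -0.21 and so opposite signs. Cldn17 and Cldn8 lie 55.0 kb apart on chromosome 16, where Cldn17 was measured and Cldn8 was not well above background on either array.

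Cldn11 was the one claudin well above background on the LPS array alone. It encodes the claudin of myelin and of Sertoli cell junctions. Its intensity was 3.41 in control cells and 38.8 with LPS. Set against the lowest signal well above background on the control array, its LPS value was 2.51-fold higher, and 1.45-fold with normexp. Some signals not well above background, that of Cdh5 on the control array among them, lay above that lowest one. These folds are thus no minimum. The value rests on 1 dim spot per array.

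The other 11 claudins, Cldn1, Cldn5, Cldn8, Cldn10, Cldn13, Cldn16, Cldn18, Cldn19, Cldn22, Cldn24 and Cldn26, failed the background criterion on both arrays. Cldn1 and Cldn8 encode sealing claudins of barrier epithelia, Cldn5 the claudin of endothelium, Cldn16 and Cldn19 claudins of the kidney tubule and Cldn18 a claudin of stomach and lung. Together with the 7 desmosomal cadherin genes in the same state, their intensities ran from 3.27 to 19.5. The files hold substitute values for spots near background, so no fold is given for these 18 genes. Under a looser flag (positive and significant signal), the names on neither array numbered 9 and those on the LPS array alone 5. Cldn1 then counted as above background in control cells alone, with intensities of 4.88 and 3.64. The 5 were Cldn11, Cldn10, Dsc1, Dsc2 and Dsg1c. Their intensities ran from 3.27 to 3.83 in control cells and with LPS from 4.17 for Dsg1c to 38.8 for Cldn11.

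**Figure D3:**
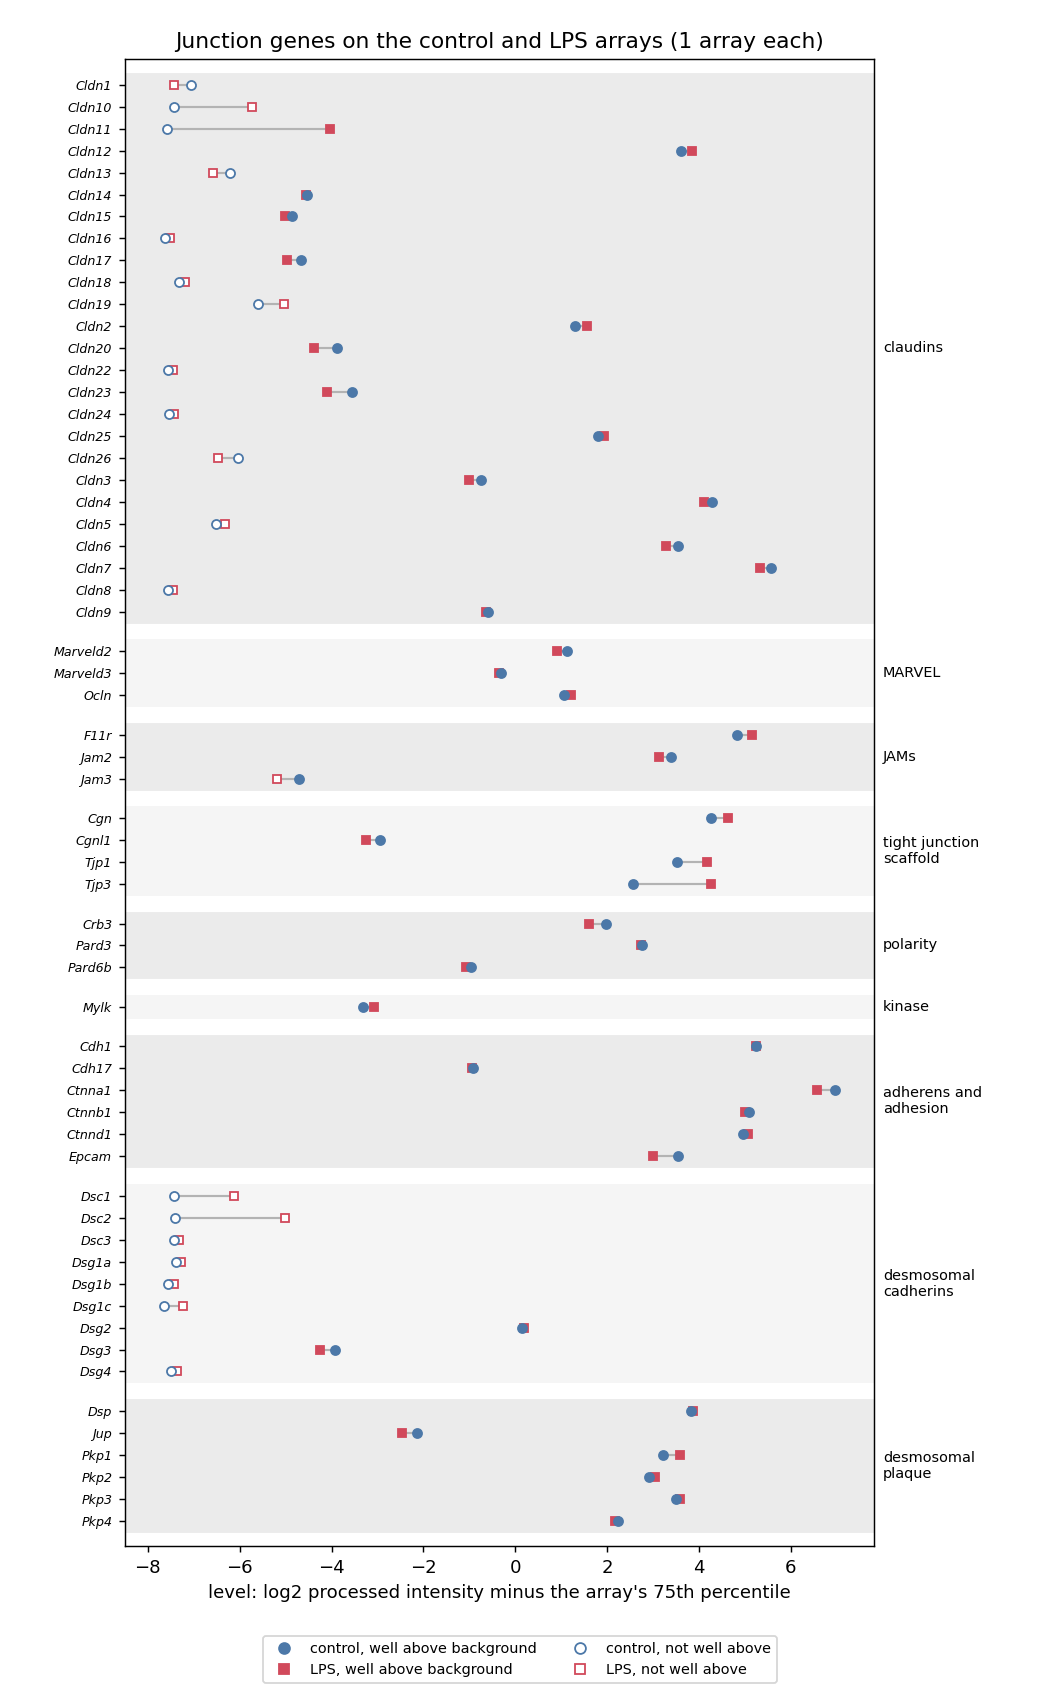
Each junction gene reported here has 1 row with its level in control cells (circle) and with LPS (square), as log2 processed intensity minus the array's 75th percentile, and rows are grouped by role. Filled symbols were well above background and open symbols were not, and levels are to be compared within a row only. Tjp3 (2.57 and 4.26) shows the widest gap among rows with both symbols filled, and the wide gaps of Cldn10, Cldn11, Dsc1 and Dsc2 include open symbols.

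The MARVEL proteins, four-pass membrane proteins that stabilise tight junction strands, gave small differences. Ocln, which encodes occludin, was read by 2 measured probes that did not share a sign. The brighter went from 1.06 to 1.21, a difference of 0.14 ± 0.05, and the other from -1.37 to -1.51, a difference of -0.14. No direction can be given for occludin. Marveld2, which encodes tricellulin, the protein of three-cell contacts, went from 1.12 to 0.91, a difference of -0.21 ± 0.05. Marveld3 went from -0.31 to -0.36, a difference of -0.05 ± 0.05.

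Junctional adhesion molecules, immunoglobulin-type proteins that help to position the tight junction and bind leukocytes, differed in sign. F11r, which encodes JAM-A, the epithelial member, went from 4.83 to 5.16, a difference of 0.33 ± 0.03. Jam2 went from 3.40 to 3.12, a difference of -0.27 ± 0.03, and its 3 probes gave between -0.38 and -0.13, all below 0. Jam3 was well above background on the control array alone, where its level was -4.71, against -5.20. With LPS its value was 1.40-fold lower, and 1.07-fold lower with normexp. These are the observed sizes and no minimum. Under the looser flag Jam3 was above background on both arrays.

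The 3 polarity genes, whose products set the apical border and place the tight junction, all lay below 0 by their brightest probes. Crb3, which encodes the apical membrane protein Crumbs 3, had intensities of 2541 and 1913, a difference of -0.37 ± 0.04, and its other probe gave -0.46. Pard6b, which encodes an adaptor of the PAR complex, went from -0.97 to -1.07, a difference of -0.10 ± 0.11. Pard3, which encodes the PAR complex scaffold, was read by 4 measured probes with no shared sign. Its brightest went from 2.76 to 2.73, a difference of -0.03 ± 0.04, and the others gave 0.19, 0.09 and 0.27.

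Mylk encodes myosin light chain kinase, whose activity opens tight junctions by contracting the actomyosin ring. Its brighter probe, whose annotated transcript did not match RefSeq, went from -3.31 to -3.08, a difference of 0.23 ± 0.11 that was 0.15 with normexp. Its other probe, annotated to a RefSeq transcript, was dim and was well above background on the control array alone (-4.94 against -6.66). With normexp the difference of that probe was -0.23. The 2 Mylk probes thus did not agree in direction, the dim one being below background with LPS.

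Most adherens junction genes were close to the median of all genes. Cdh1, which encodes E-cadherin, went from 5.25 to 5.24, a difference of -0.01 ± 0.03 over a probe printed 10 times. Ctnnb1, which encodes β-catenin, went from 5.08 to 5.01, a difference of -0.07 ± 0.03. Ctnnd1, which encodes p120-catenin, the stabiliser of cadherin at the membrane, went from 4.96 to 5.06, a difference of 0.10 ± 0.03. These core partners thus lay within about 0.10 of 0. Ctnna1, which encodes α-catenin, the link of the complex to actin, went from 6.96 to 6.56, a difference of -0.40 ± 0.03, and -0.39 with normexp.

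Epcam encodes an epithelial adhesion molecule that binds claudin-7 and keeps it from degradation. It gave the lowest value of the 41 junction genes. Its level was 3.55 in control cells and 2.99 with LPS, or intensities of 7634 and 5030. That is 1.47-fold lower, a difference of -0.56 ± 0.03 that ranked 615 from the bottom of all measured names. Over the other settings of background correction and scaling the Epcam difference lay between -0.59 and -0.55, and with 1 probe it could not change with probe choice or filter. Cdh17, which encodes the intestinal liver-intestine cadherin, went from -0.92 to -0.94, a difference of -0.02 ± 0.11, and its dim second probe gave -0.27.

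Of the 9 desmosomal cadherin genes, 2 were measured. Dsg2, which encodes the desmoglein of simple epithelia, went from 0.15 to 0.18, a difference of 0.03 ± 0.05, and its second probe gave 0.08. Dsg3, which encodes a desmoglein of stratified epithelia, went from -3.93 to -4.26, a difference of -0.33 ± 0.11 that was -0.12 with normexp. The genes Dsc1, Dsc2, Dsc3, Dsg1a, Dsg1b, Dsg1c and Dsg4 failed the background criterion on both arrays. Dsc2 encodes the desmocollin that pairs with desmoglein 2 in simple epithelia, and its intensity was 3.83 in control cells and 19.5 with LPS.

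The plaque genes of the desmosome were all measured, and 4 of 6 lay above 0 (66.7%, against 44.5% of all), with a median of 0.05. Pkp1, which encodes a plakophilin best known from stratified epithelia, went from 3.22 to 3.59, a difference of 0.37 ± 0.03. Pkp2 gave 0.13 ± 0.03, Pkp3 0.07 ± 0.03 and Pkp4 -0.07 ± 0.04. Dsp, which encodes desmoplakin, the link to keratin filaments, went from 3.83 to 3.86, a difference of 0.04 ± 0.03 over a probe printed 10 times. Jup encodes plakoglobin, which serves both desmosomes and adherens junctions. It went from -2.14 to -2.48, a difference of -0.34 ± 0.11 that was -0.22 with normexp.

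Where a junction gene had several probes, they mostly gave the same sign. Of 16 genes with several probes, 11 had at least 2 measured ones. In 9 of the 11 the signs were shared, and in Ocln and Pard3 they were not. The widest gap between the probes of 1 gene was 0.30 and the median gap 0.12. Tjp3, Tjp1 and Epcam had 1 probe each, so no second probe bears on them.

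Other genes of junctions and of their control were taken as 8 lists, with 157 names on the array that are not among the 61. Of these, 129 were measured, with a median difference of 0.00. In all, 2 were at least 2-fold higher (1.55%, against 1.46% of all measured names) and 0 lower (against 0.571%). At 1.5-fold, 5 were higher (3.88%, against 3.58%) and 1 lower (against 2.68%). The higher counts lay near the shares over all names.

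Gap junction connexins held the widest difference. Gja1, which encodes connexin 43, went from -1.61 to 0.86, a difference of 2.48 ± 0.05 that was 2.17 with normexp, or 5.57-fold. Of 18 connexin names 10 were measured, with a median of -0.10, so Gja1 stood apart from the others. Gja5 at -0.31 and Gjb2 at -0.30 were lowest, and with normexp they were at -0.12 and -0.28.

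Among 24 further adherens junction names, 20 were measured, with a median of 0.04. Pvrl1, which encodes nectin 1, an immunoglobulin-type adhesion molecule, went from -3.08 to -1.92. Its difference of 1.16 ± 0.11 is past 2-fold, and it was 0.71 with normexp, which is not. Its relative Pvrl2 was next at 0.36, and Afap1 at -0.36 and Arvcf at -0.31 were lowest. Among 25 further tight junction names, 21 were measured, with a median of -0.01. Magi3, which encodes a membrane-associated scaffold of the junction, gave 0.82 and 0.72 by its 2 probes, and Amotl2 was next at 0.33. Ildr1 at -0.41 and Cldnd2 at -0.30 were lowest, but Cldnd2, a dim gene, was at -0.04 with normexp.

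Of 19 further polarity names, 14 were measured, with a median of 0.01. Pard6g, a paralog of Pard6b, went from 2.88 to 3.83, a difference of 0.95 ± 0.03 that is 1.93-fold. Pard6b itself was at -0.10. Mark2 was next at 0.23, and Pard3b at -0.21, which was -0.12 with normexp, and Llgl2 at -0.19 were lowest. Lin7b was well above background on the control array alone. Its control value was 1.12-fold above its LPS value, but with normexp its LPS value was the higher one, by 0.05. All 8 further desmosome and plakin names were measured, with a median of -0.16, from Cdsn at -0.40, which was -0.20 with normexp, and Perp at -0.38 to Plec at 0.09 and Ppl at 0.10.

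Of 20 actomyosin genes and their regulators, 18 were measured, with a median of 0.04. Myh14, which encodes a nonmuscle myosin heavy chain, was the lowest at -0.73 ± 0.03, or 1.66-fold lower. Myl9 at -0.39 followed, and Mylk2 at 0.31 and Myl12b at 0.19 were highest. With normexp the dim Myl9 and Mylk2 gave -0.16 and 0.11, so that Mylk2 was below Myl12b, which stayed at 0.19. Of 27 transcription regulators 23 were measured, with a median of -0.03. Elf3, which encodes an epithelial ETS factor, was highest at 0.70 ± 0.04, and Ovol1 was next at 0.35, which was 0.15 with normexp. Grhl3, which encodes an activator of epithelial barrier genes, was lowest at -0.49, and Snai1, which encodes the repressor Snail, followed at -0.28, which was -0.05 with normexp. Of 16 proteases and other regulators 15 were measured, with a median of 0.08, from Lnx1, a ubiquitin ligase gene, at -0.56 and St14 at -0.26 to Nedd4l at 0.32 and the matrix metalloproteinase gene Mmp7 at 0.41.

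**Figure D4:**
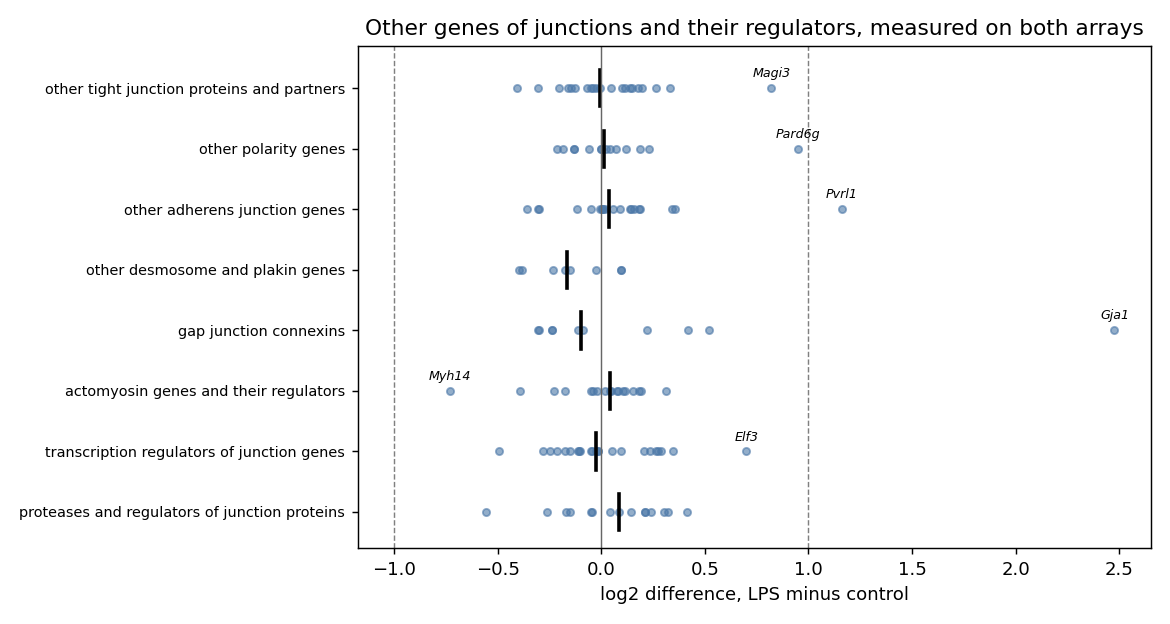
Each point is a measured gene of 1 of the 8 lists of other junction genes and regulators, placed by its log2 difference, LPS minus control, with a black bar at the median of the list and dashed lines at 2-fold. Gja1 (2.48) and Pvrl1 (1.16) lie past the 2-fold line, and the medians lie between -0.16 and 0.08.

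Markers of cell types were read beside these results. In bulk RNA, fewer cells of a type and less RNA per cell cannot be told apart. The 10 measured epithelial markers, of which Cldn7 and Cdh17 are junction genes too, had a median of -0.22, and 9 of 10 lay below 0. Of all measured names, 44.5% lay above 0. Lgals4, a galectin gene of the gut lining, was at -1.45, Krt20 at -0.92 (-0.61 with normexp) and Vil1 at -0.72, and Elf3 at 0.70 was the one above 0. Their summed linear level, in multiples of the 75th percentile, was 1183 in control cells and 1018 with LPS. Their part in the lower values of Epcam, Crb3 and the claudins was not tested.

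Markers of other cells were measured in part. Of 7 macrophage markers, Csf1r (0.06) and Cd68 (0.30) were measured, Emr1 was seen on the LPS array alone, Ptprc on the control array alone, and Lyz2, Tyrobp and Laptm5 on neither, with summed levels of 4.17 and 4.62. Of 7 fibroblast markers, Col1a1 (0.33) and Col1a2 (0.91, or 0.52 with normexp) were measured, Pdgfra was seen on the control array alone, and Col3a1, Dcn, Lum and Thy1 on neither, with summed levels of 0.342 and 0.419. Of 7 endothelial markers, Pecam1 (0.00), Kdr (0.05) and Esam (0.05) were measured, and Cdh5, Tek, Emcn and Vwf were on neither, with summed levels of 10.0 and 10.3. Each of these lists thus held genes well above background on both arrays and genes on neither, and their part in the results was not tested.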

How the data were processed

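Total RNA of control and LPS-treated CMT93 cells was hybridised to 1 one-colour (Cy3) Agilent array each. The deposited spot intensity values and flags were made, per the file headers, with Feature Extraction 10.10.1.1. There the processed intensity was background-subtracted, detrended over the slide and replaced by a substitute near background. No scaling between arrays was done before deposit, per the file headers.

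Control spots and flagged spots were dropped, the log2 processed intensity was taken and the 75th percentile of each array subtracted. Spots of a probe were averaged, and a gene name took its brightest probe. Spot SDs came from 245 probes with at least 5 spots, in 4 brightness bins. Of the 61 names, 59 matched RefSeq by accession and 2 have another symbol there; Dsg4 and Mylk kept the file's name. Genes were named by size: all at least 1.5-fold different, the highest, lowest and brightest of each role, and the 2 highest and 2 lowest of each list; other members are given too, and a few genes that the rule takes are not reported here. The members and lists were chosen with earlier results of these data known. The 9 alternatives were normexp (offset 50), a floor of 1 on background-subtracted signal, scaling by quantiles, by the median or by the percentile of detected probes, the median over probes, and 3 filters. Scripts, tested on simulated data, used R 4.3.3 with limma 3.58.1, Python 3.11.15, numpy 2.4.6, pandas 2.3.3 and matplotlib 3.10.9.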

Additional observations from a re-analysis of the deposited data

How the results depend on the processing

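The number of junction genes at least 2-fold higher stayed at 1, and that of lower ones at 0, under each alternative run except that 5 were higher without a filter on dim probes, where spots near background hold substitute values. Without that filter the median over the junction genes was 0.029, and over genes at or above the median brightness it was 0.014, against -0.05. With the looser flag, 5 were above background on the LPS array alone and 9 on neither, against 1 and 18, since the flag decides which spots count. Of the genes in the 8 lists, 2 were at least 2-fold higher; that count was 1 with normexp, 4 without a filter and 0 among the brighter genes, to which Gja1 and Pvrl1 do not belong. Over all genes, 296 higher and 116 lower at 2-fold became 170 and 37 with normexp, 744 and 552 with the looser flag, 1358 and 1174 without a filter, and 94 and 15 among the brighter genes. Of 176 values of 22 named junction genes, 158 moved by less than the spot SD, 18 by more, and 1 changed sign, that of Pard3 with the median over its probes. Outside these 22, Cldn15 and Cdh17 changed sign with normexp, Cldn14 with quantile normalization and Cdh1 with median centring, from differences of -0.15, -0.02, -0.01 and -0.01. Many of the 158 values could not move by more, so that count is no measure of stability. The looser flag and the lack of a filter kept the probe and value of each gene. Scaling by the median or by the percentile of detected probes each shifted all genes by 1 constant, smaller than any spot SD. The median over probes could not change a gene with 1 probe. No paired analysis was possible because each group has 1 array, and for the same reason no replicate could be left out. Signal over background limits the dim genes.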
